A study of Mus musculus with 9 samples.

Results

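The genes described here carry out DNA replication and mitosis, and were followed in mouse bone marrow cells made to express wild-type or mutant isocitrate dehydrogenase 1 (IDH1). They were chosen by name as 56 genes of the G1/S transition and DNA replication (27 genes) or of the G2 phase and mitosis (29 genes). Of these, 53 had a probe set with a single gene symbol on the array, out of 17731 genes tested. They were 26 G1/S members (all but Chaf1a) and 27 G2/M members (all but Ccnb1 and Nusap1).

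Affymetrix arrays were hybridised with total RNA from sorted marrow cells, 1 array per sample and 3 arrays per group. In all groups, controls included, the starting cells were C57BL/6 marrow cells immortalised with the homeobox gene HoxA9, infected with a retrovirus and given to irradiated mice of the same strain. Marrow was taken 4 weeks later and the cells carrying the green fluorescent marker were sorted. The CTL group held the empty EGFP vector, the IDH1wt group pSF91 with wild-type IDH1 followed by IRES-EGFP, and the IDH1mut group pSF91 with mutant IDH1 followed by IRES-GFP. The labels name neither the IDH1 mutation nor the species of the insert. Nothing in them says that replicates came from separate cultures or recipient mice, so p-values measure only the spread between these samples, which may be technical.

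A cell enters S phase when cyclin E and its kinase free E2F factors from RB proteins, and E2F factors drive the genes of the replication machinery. The MCM2-7 helicase is loaded on origins by ORC, CDC6 and CDT1, then switched on with CDC45 and the GINS complex. Later in the cycle, the DREAM complex, B-MYB and FOXM1 control the genes of mitosis, many of which carry a CHR element and CCAAT boxes near their start. In marrow, dividing progenitors express both sets, and mature neutrophils have left the cycle.

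The promoter letters show how the members differ beyond their names. RefSeq promoter windows (GRCm38.p6; 300 bases, 250 before and 50 after the start) were on hand for 43 of the 53 measured members. Both strands were searched for E2F words (TTTCCCGC, TTTGGCGC, TTTCGCGC), CHR words (TTTGAA or its variant with the letters TTCGAA) and the CCAAT box (CCAAT); no word of a motif contains a word of another. An E2F word stood in 9 of 22 G1/S genes (Orc1, Cdc6, Cdt1, Mcm3, Mcm5, Mcm6, Mcm7, Pola1 and Lig1) and in 1 of 21 G2/M genes (Cdk1), against 1.84% of all 32851 windows. A CHR word stood in 4 of 22 G1/S genes (Mcm2, Mcm7, Cdc45 and Fen1) and in 17 of 21 G2/M genes, against 19.23% of all windows. CCAAT boxes stood in 14 of 22 and 19 of 21 genes, against 37.41%. CHR and CCAAT together stood in 3 of 22 and 17 of 21, against 7.52%. The shares of all windows are per window, while some genes have several. Counted likewise, E2F words stood in 34.62% of G1/S and 4.55% of G2/M windows. In the same order it was 15.38% and 81.82% for CHR words, and 57.69% and 90.91% for CCAAT boxes. For CHR and CCAAT together it was 11.54% and 81.82%. A match of letters is a description and not a site.

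The promoters below begin 250 bases before the start and end 30 bases after it, and are printed for the G1/S gene with the lowest and the one with the highest difference between IDH1mut and CTL (Mcm3 and Ccne1), and for the G2/M gene with the highest (Cenpa). Hmmr and Cdk1 were added after their letters were seen, Hmmr for its 5 CCAAT boxes and Cdk1 as the G2/M member with all 3 motifs. Capitals mark E2F, CHR and CCAAT words on either strand. Mcm3 lies at chr1:20820283-20820562 on the minus strand, Ccne1 at chr7:38107461-38107740 (minus), Cenpa at chr5:30666636-30666915 (plus), Hmmr at chr11:40733408-40733687 (minus) and Cdk1 at chr10:69352883-69353162 (minus).
Mcm3: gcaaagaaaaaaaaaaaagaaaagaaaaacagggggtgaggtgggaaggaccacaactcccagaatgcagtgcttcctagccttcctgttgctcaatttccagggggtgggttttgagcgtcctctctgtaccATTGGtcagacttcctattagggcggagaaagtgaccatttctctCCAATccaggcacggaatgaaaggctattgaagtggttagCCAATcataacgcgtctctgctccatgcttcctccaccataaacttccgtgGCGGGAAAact
Ccne1: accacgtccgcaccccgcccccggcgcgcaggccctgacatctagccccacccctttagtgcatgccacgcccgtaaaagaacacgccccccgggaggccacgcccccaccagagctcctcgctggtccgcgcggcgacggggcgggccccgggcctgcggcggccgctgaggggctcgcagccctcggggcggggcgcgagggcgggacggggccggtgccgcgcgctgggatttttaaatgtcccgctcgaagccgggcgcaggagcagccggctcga
Cenpa: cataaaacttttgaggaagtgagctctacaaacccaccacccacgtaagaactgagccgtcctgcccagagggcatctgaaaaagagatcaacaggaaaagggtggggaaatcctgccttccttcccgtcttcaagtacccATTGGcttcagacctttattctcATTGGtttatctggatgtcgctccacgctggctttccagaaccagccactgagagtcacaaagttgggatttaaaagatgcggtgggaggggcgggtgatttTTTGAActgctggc
Hmmr: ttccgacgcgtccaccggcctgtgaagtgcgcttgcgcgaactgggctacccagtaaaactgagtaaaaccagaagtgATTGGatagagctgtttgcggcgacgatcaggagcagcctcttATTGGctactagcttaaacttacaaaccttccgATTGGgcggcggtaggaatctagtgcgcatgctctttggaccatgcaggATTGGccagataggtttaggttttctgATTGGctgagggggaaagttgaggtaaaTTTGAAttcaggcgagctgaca
Cdk1: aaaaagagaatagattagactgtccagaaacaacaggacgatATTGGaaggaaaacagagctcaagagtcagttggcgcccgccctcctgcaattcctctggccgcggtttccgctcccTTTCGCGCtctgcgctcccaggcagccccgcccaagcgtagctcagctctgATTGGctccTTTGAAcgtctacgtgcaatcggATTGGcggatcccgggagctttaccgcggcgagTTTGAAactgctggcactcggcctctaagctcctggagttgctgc
Counting the first transcribed base as 1, the Mcm3 promoter held an E2F word that begins at position 20 and 3 CCAAT boxes upstream. The Ccne1 stretch held none of the letters searched. The CHR word began at position 17 in Cenpa and at position 9 in Hmmr, each after a row of CCAAT boxes on the opposite strand. Cdk1 held CHR words at positions -71 and -15 and an E2F word at -131.

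Values are log2 expression per probe set, so that a difference of 1 is a doubling of signal. Levels are compared between arrays for the same gene, since probe sets of different genes differ in affinity. The values on all arrays ran from 1.72 to 14.17, and array medians from 4.65 to 4.72. Cdt1, Pola1, Rrm1, Nek2 and Cenpf had group means under 3.5, near the low end of the scale, where RMA compresses differences. Differences are given ± standard error (SE) with a Benjamini-Hochberg adjusted p over all genes from limma, two-sided, and "rose" and "fell" mark genes with an adjusted p under 0.05. All 3 comparisons share arrays: both comparisons with CTL use the same 3 CTL arrays.

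Marker lists of marrow and other cell types are given as the range of their mean level per array. A list of immediate early and heat shock genes is given likewise. In IDH1mut against CTL 20.7% of all genes were called, 10.1% higher and 10.6% lower. The stromal and endothelial list (25% called), the early B list (27.3%) and the T and NK list (30%) lay nearest that share. Of the 9 measured hematopoietic markers, 3 rose and 2 fell in IDH1mut against CTL (8.10 to 8.13 in CTL, 8.21 to 8.24 in IDH1wt, 8.38 to 8.43 in IDH1mut). Of the 12 stromal and endothelial genes, 1 rose and 2 fell (4.76 to 4.84, 4.62 to 4.92 and 4.60 to 4.67), with the endothelial gene Cdh5 at 3.30 to 3.75 per group. Of the myeloid progenitor and granule genes, 8 of 9 fell in IDH1mut against CTL (mean level 10.7 to 10.8 in CTL, 10.6 to 10.7 in IDH1wt, 10.02 to 10.13 in IDH1mut), and 8 of 12 late neutrophil genes rose (11.96 to 12.14, 12.13 to 12.20 and 12.62 to 12.68). Of the erythroid genes, 13 of 14 rose (6.80 to 6.89, 6.48 to 8.01 and 7.995 to 8.26), with Hba-a1 near the low end at 3.13 to 3.41 per group. Of the early B genes, 3 of 11 rose (5.69 to 6.79, 4.98 to 6.12 and 6.23 to 7.42), with Pax5 at 4.30 to 4.62. Of the immediate early and heat shock genes, 6 of 12 fell and 1 rose (8.22 to 8.34, 6.56 to 6.91 and 6.81 to 7.25). In IDH1wt against CTL, 7 of these 12 fell and 0 rose, beside 0.711% of all genes that fell and 1.62% that rose. The CTL arrays thus stood above both IDH1 groups in this list. Of the T and NK genes, 2 of 10 rose and 1 fell (5.53 to 5.64, 5.46 to 5.54 and 5.56 to 5.80). The part of these shifts in the results below was not tested. In bulk RNA, fewer cells of a type and less RNA per cell cannot be told apart.

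Between IDH1mut and CTL, the share of replication and mitosis genes called was close to the share of all genes, which were less often bright. The median size of the difference was 0.19 (log2) for members and 0.17 for all genes. Among genes above the median level alone, 10 of 21 G1/S and 5 of 24 G2/M members passed, beside 3991 of 8865 genes. In a test against a difference of 0.2 (log2), 0 of 53 members passed, beside 1484 of 17731 genes. All members past the threshold were in comparisons of IDH1mut, and only 2.33% of all genes passed in IDH1wt against CTL. Against CTL, 7 of 53 measured members rose in IDH1mut and 4 fell. The members that rose were Ccne1, Cdc45, Slbp, Ccna2, Cenpa, Prc1 and Hmmr, and those that fell were E2f1, Mcm2, Mcm3 and Gins1. Their 11 calls are 20.8% of the members, beside 20.7% of all genes called in this comparison (10.1% higher and 10.6% lower). The median difference of the members was 0.00 on the log2 scale, beside -0.04 over all genes. A difference of more than 0.5 (log2) was seen in 3 of 53 members, beside 2212 of 17731 genes. The CTL and IDH1mut arrays did not overlap for 10 members with IDH1mut higher and 11 with IDH1mut lower. Over all genes this happened in 16.3% and 21.5%.

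**Figure D1:**
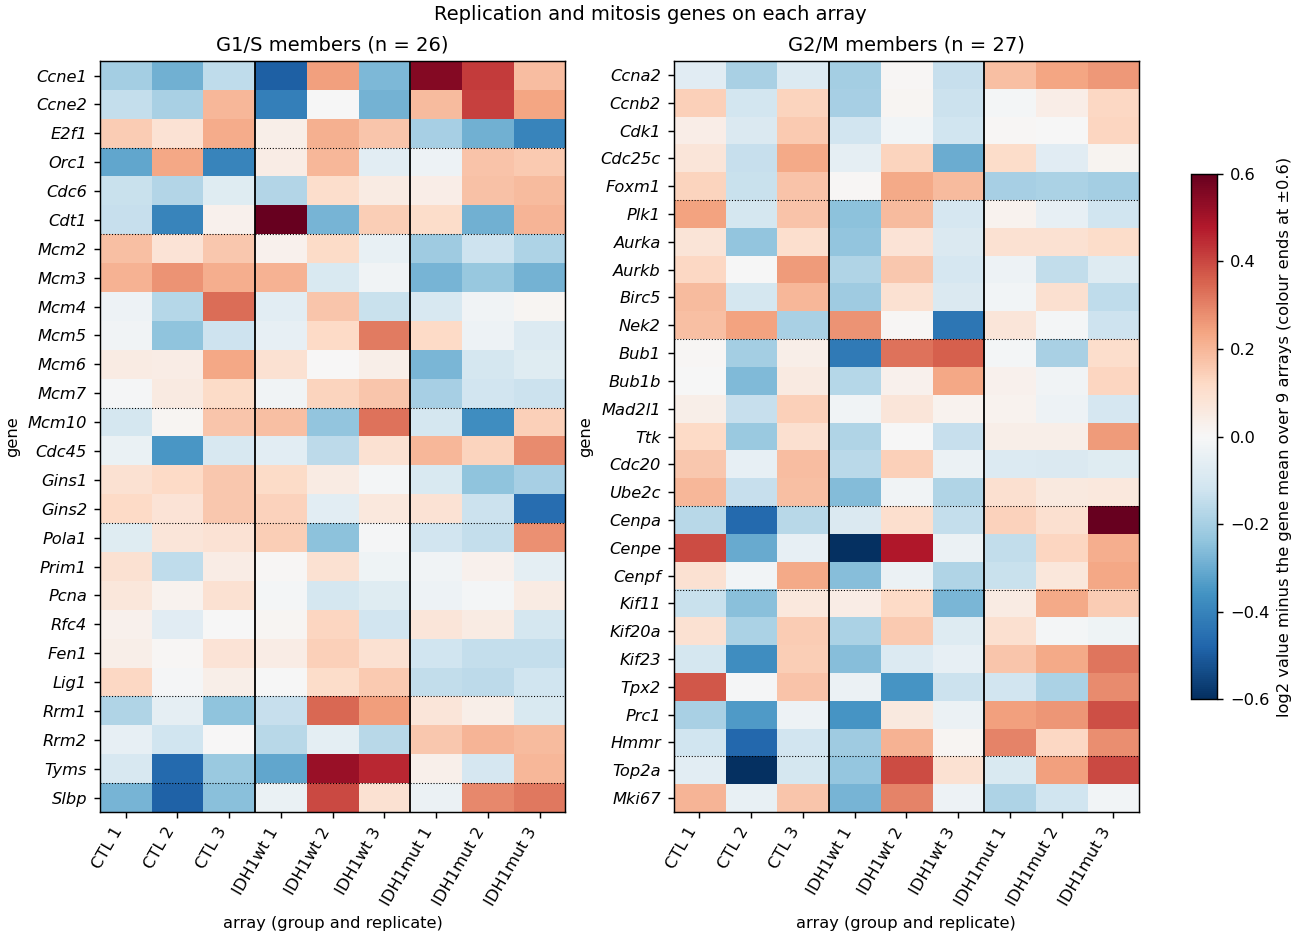
Colour map of the 53 measured members (one line each, grouped by G1/S and G2/M) on the 9 arrays, as the log2 value on each array minus the mean of that gene over the 9 arrays. CTL replicate 2 and IDH1wt replicate 1 are low over most G2/M genes, and Mcm3 and E2f1 are low on all 3 IDH1mut arrays.

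In IDH1wt against CTL, 0 of 53 members passed the threshold by limma, and 6 had an unadjusted p under 0.05 (4 G1/S and 2 G2/M). Over all genes 2.33% were called, 1.62% higher and 0.711% lower. The arrays did not overlap for 2 members with IDH1wt higher and 3 with IDH1wt lower, beside 10.7% and 12.9% of all genes. In IDH1mut against IDH1wt, Ccne1, Ccne2, Rrm2 and Ccna2 rose and E2f1 fell, 5 of 53 members, beside 13.3% of all genes (6.54% higher and 6.78% lower). Here 10 members had all IDH1mut arrays above and 9 all below the IDH1wt arrays, beside 14.1% and 15.5% of all genes. Of the members, 40 of 53 passed in none of the 3 comparisons, and Ccne1, E2f1 and Ccna2 passed in both comparisons of IDH1mut.

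**Figure D2:**
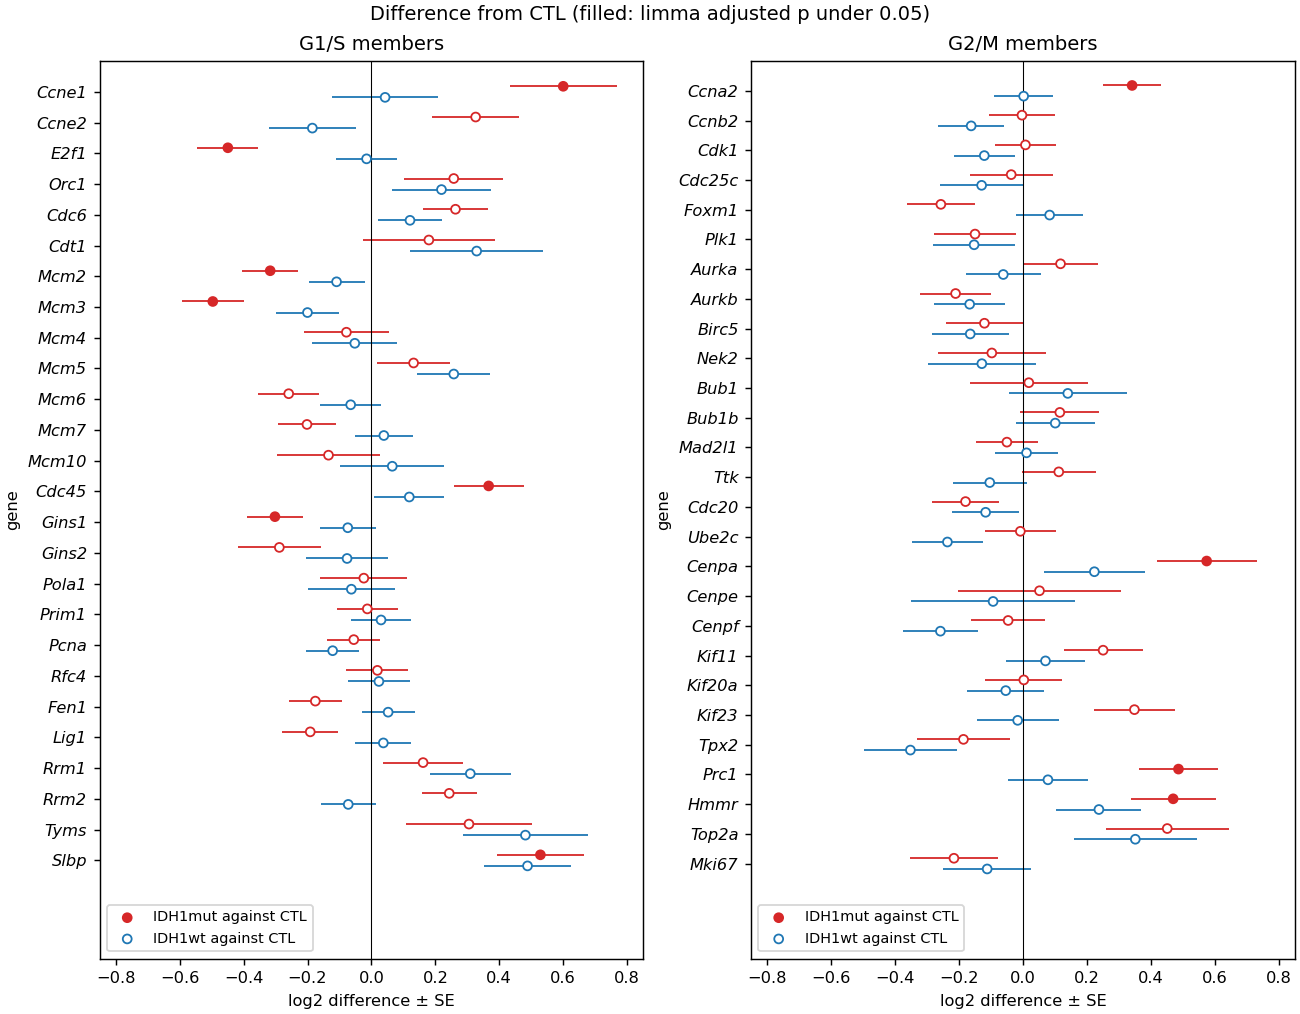
Log2 difference of IDH1mut (red) and of IDH1wt (blue) from CTL for each measured member, G1/S on the left and G2/M on the right, with lines of ± 1 SE from limma and filled points for an adjusted p under 0.05. Most points lie within 0.3 of 0; Ccne1 has the highest and Mcm3 the lowest value for IDH1mut.

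Among the G1/S regulators, cyclin E rose in IDH1mut while E2f1, the transcription factor that drives S phase genes, fell. Ccne1, a cyclin E that activates CDK2, read 7.10, 7.02 and 7.15 on the CTL arrays, 6.81, 7.55 and 7.03 on the IDH1wt arrays and 7.86, 7.73 and 7.49 on the IDH1mut arrays. All IDH1mut arrays stood above all CTL arrays, while IDH1wt replicate 2 lay above the lowest IDH1mut array. The difference from CTL was 0.60 ± 0.17 (1.52-fold higher; adjusted p = 0.0252) in IDH1mut and 0.04 ± 0.17 (adjusted p = 0.925) in IDH1wt, and IDH1mut exceeded IDH1wt by 0.56 ± 0.17 (adjusted p = 0.0484). The call against CTL held without IDH1mut replicate 3 and was lost without any other 1 of the 6 arrays (adjusted p up to 0.0815). The call against IDH1wt held only without IDH1wt replicate 2, and was lost on leaving out any other array of those groups (up to 0.156).

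Ccne2, the other cyclin E, read 7.90, 7.84 and 8.24 in CTL, 7.63, 8.04 and 7.76 in IDH1wt and 8.23, 8.45 and 8.27 in IDH1mut. The IDH1mut arrays were above the IDH1wt arrays, and CTL replicate 3 lay within the IDH1mut range. It rose against IDH1wt by 0.51 ± 0.14 (adjusted p = 0.0298), and its difference from CTL was 0.33 ± 0.14 (adjusted p = 0.119). The call against IDH1wt was lost without IDH1wt replicate 1 or 3 or IDH1mut replicate 2 or 3 (adjusted p up to 0.103).

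E2f1 read 6.82, 6.75 and 6.89 in CTL, 6.70, 6.88 and 6.83 in IDH1wt and 6.47, 6.38 and 6.27 in IDH1mut. Every IDH1mut array was below every other array, and the CTL and IDH1wt arrays overlapped. The difference was -0.45 ± 0.10 against CTL (1.37-fold lower; adjusted p = 0.00648) and -0.43 ± 0.10 against IDH1wt (adjusted p = 0.0122), and -0.02 ± 0.10 between IDH1wt and CTL (95% interval -0.22 to 0.19). E2f1 was the member whose calls in both comparisons held on leaving out each of the arrays in turn, with adjusted p up to 0.0317 against CTL and 0.0457 against IDH1wt.

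The 3 licensing members (Orc1 of the origin recognition complex, and the loaders Cdc6 and Cdt1) had differences of 0.18 to 0.26 between IDH1mut and CTL, and 0 of 3 passed. Cdc6 read 8.70 to 8.81 in CTL and 8.92 to 9.07 in IDH1mut, without overlap, with a difference of 0.26 ± 0.10 (adjusted p = 0.0905). Orc1 differed by 0.26 ± 0.15 (adjusted p = 0.286). It passed, with IDH1mut higher, when CTL replicate 2 was left out, the array on which it read 5.98 against 5.44 and 5.35 on the other CTL arrays.

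Of the MCM2-7 genes, which encode the ring of the replicative helicase, Mcm2 and Mcm3 fell in IDH1mut against CTL and 4 of the 6 had all IDH1mut arrays below all CTL arrays. Over all genes 10.6% fell and 21.5% had all IDH1mut arrays lower. The median difference of the 6 was -0.23, and Mcm5 was the 1 member above 0. Mcm3 read 7.03, 7.09 and 7.04 in CTL, 7.03, 6.73 and 6.80 in IDH1wt and 6.54, 6.59 and 6.53 in IDH1mut. All 3 IDH1mut arrays were below the other 6, and IDH1wt ranged from the CTL level down to between the groups. The difference from CTL was -0.50 ± 0.10 (1.41-fold lower; adjusted p = 0.00424) in IDH1mut and -0.20 ± 0.10 (adjusted p = 0.326) in IDH1wt. Between IDH1mut and IDH1wt it was -0.30 ± 0.10 (adjusted p = 0.0691). The call against CTL held without each of the 6 arrays in turn (adjusted p up to 0.0177).

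Mcm2 read 9.47, 9.37 and 9.45 in CTL, 9.32, 9.41 and 9.25 in IDH1wt and 9.08, 9.16 and 9.11 in IDH1mut. The IDH1mut arrays lay below all others. The difference from CTL was -0.32 ± 0.09 (adjusted p = 0.0245) and from IDH1wt -0.21 ± 0.09 (adjusted p = 0.152). The call was lost without CTL replicate 1 or 3 or IDH1mut replicate 1 or 3 (adjusted p up to 0.0959).

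Mcm6 read 9.74, 9.73 and 9.92 in CTL, 9.78, 9.69 and 9.73 in IDH1wt and 9.42, 9.59 and 9.61 in IDH1mut. Its difference from CTL in IDH1mut was -0.26 ± 0.10 (adjusted p = 0.082). Mcm7 read 9.58, 9.64 and 9.70, then 9.56, 9.72 and 9.75, then 9.39, 9.47 and 9.46 in the same order of groups. For both genes the IDH1mut arrays were below all CTL and IDH1wt arrays, and the difference of Mcm7 was -0.20 ± 0.09 (adjusted p = 0.149).

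Mcm4 read 9.79, 9.65 and 10.16 in CTL, 9.76, 9.99 and 9.69 in IDH1wt and 9.73, 9.81 and 9.84 in IDH1mut, and its groups overlapped (-0.08 ± 0.13 in IDH1mut against CTL, adjusted p = 0.745). Mcm5 read 6.16, 5.94 and 6.05, then 6.13, 6.30 and 6.49, then 6.30, 6.15 and 6.10, also with overlap. Its difference was 0.13 ± 0.11 (adjusted p = 0.476) in IDH1mut and 0.26 ± 0.11 (adjusted p = 0.279) in IDH1wt against CTL. Against IDH1wt all 6 MCM2-7 genes had a difference below 0 in IDH1mut, and 0 of 6 passed the threshold (3 with an unadjusted p under 0.05).

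The partners that turn the ring into a working helicase moved apart. Cdc45 read 7.74, 7.43 and 7.68 in CTL, 7.72, 7.62 and 7.87 in IDH1wt and 7.98, 7.91 and 8.06 in IDH1mut. Again all IDH1mut arrays were above all others, and the rise over CTL was 0.37 ± 0.11 (adjusted p = 0.0349). It held without CTL replicate 1 and was lost without any other 1 of the 6 arrays (adjusted p up to 0.125).

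Gins1, a subunit of the GINS complex, read 8.84, 8.87 and 8.91 in CTL, 8.86, 8.80 and 8.74 in IDH1wt and 8.66, 8.51 and 8.55 in IDH1mut. These IDH1mut arrays were the lowest 3, and the difference from CTL was -0.30 ± 0.09 (adjusted p = 0.0301). That call held without IDH1mut replicate 1 and was lost without any other 1 of the 6 arrays (adjusted p up to 0.0988). Gins2, of the same complex, had a difference of -0.29 ± 0.13 (adjusted p = 0.146), and Mcm10, which helps to activate the helicase, -0.13 ± 0.16 (adjusted p = 0.631).

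None of the 6 fork members passed in any comparison by limma: the polymerase and primase genes Pola1 and Prim1, the sliding clamp Pcna, the clamp loader Rfc4, the flap nuclease Fen1 and the ligase Lig1. In IDH1mut against IDH1wt, Fen1 and Lig1 had an unadjusted p under 0.05. Pcna, often used as a mark of dividing cells, read 12.24, 12.19 and 12.26 in CTL, 12.16, 12.06 and 12.10 in IDH1wt and 12.14, 12.16 and 12.22 in IDH1mut. The IDH1mut arrays overlapped the CTL arrays. The difference was -0.06 ± 0.08 (adjusted p = 0.709) with a 95% interval of -0.24 to 0.13. Fen1 read 9.24 to 9.31 in CTL and 9.09 to 9.11 in IDH1mut, and Lig1 10.02 to 10.15 and 9.87 to 9.91, both without overlap and with differences of -0.18 ± 0.08 and -0.19 ± 0.09.

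Of the genes that supply deoxynucleotides, Rrm2, the regulated subunit of ribonucleotide reductase, read 8.63, 8.56 and 8.68 in CTL, 8.51, 8.62 and 8.51 in IDH1wt and 8.84, 8.88 and 8.87 in IDH1mut. The IDH1mut arrays were above all others. Rrm2 rose against IDH1wt by 0.32 ± 0.09 (adjusted p = 0.032), and its difference from CTL was 0.24 ± 0.09 (adjusted p = 0.0666). The call against IDH1wt held without IDH1wt replicate 2 and was lost without any other 1 of the 6 arrays (adjusted p up to 0.102). Rrm1, the large subunit, and Tyms, thymidylate synthase, overlapped between IDH1mut and CTL. In IDH1wt they passed against CTL only when IDH1wt replicate 1 was left out.

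Slbp, which binds the stem-loop of histone messenger RNA, read 6.77, 6.56 and 6.80 in CTL, 7.01, 7.45 and 7.14 in IDH1wt and 7.01, 7.34 and 7.37 in IDH1mut. Both IDH1 groups were above the CTL arrays and overlapped each other. The difference from CTL was 0.53 ± 0.14 in IDH1mut (1.44-fold higher; adjusted p = 0.0181) and 0.49 ± 0.14 in IDH1wt (adjusted p = 0.0934). The difference between the IDH1 groups was 0.04 ± 0.14, with a 95% interval of -0.26 to 0.34. The call in IDH1mut was lost without CTL replicate 2 or IDH1mut replicate 2 or 3 (adjusted p up to 0.0714).

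Over all 26 G1/S members, 3 rose and 4 fell in IDH1mut against CTL, with a median of -0.02. These calls are 26.9% of the members, beside 20.7% of all genes. In IDH1mut against IDH1wt 3 rose and 1 fell, 15.4% of the members beside 13.3% of all genes. The median was -0.14 beside 0.00 over all genes, and 17 of 26 differences were below 0. The balance of calls against IDH1wt turned with the processing. Among genes above the median level, 3 of 21 members rose and 6 fell, beside 1284 and 1543 of 8865 genes. With robust variances on an intensity trend 3 rose and 4 fell, beside 1342 and 1479 of all genes. In an unmoderated test 1 rose and 4 fell, beside 822 and 897 of all genes. The members added as lower were Mcm3, Mcm7, Gins1, Fen1 and Lig1 in at least 1 of these. In IDH1wt against CTL the median was 0.03. In both comparisons of IDH1mut the calls rested on few arrays, and fewer of all genes passed too with 1 array left out. Against CTL, 3 members passed without CTL replicate 3, IDH1mut replicate 2 or IDH1mut replicate 3, beside 2603, 2858 and 2745 of all genes. Without CTL replicate 1 or 2, 4 members passed, beside 2370 and 2944 of all genes (3663 with all arrays). E2f1 and Mcm3 were each time among the members that passed. The unmoderated test against CTL gave 1 that rose (Rrm2) and 5 that fell (E2f1, Mcm2, Mcm3, Gins1 and Fen1), without Ccne1, Cdc45 and Slbp. Over all genes that test gave 1388 that rose and 1567 that fell. Against IDH1wt, E2f1 alone passed without IDH1wt replicate 1 or 3 or IDH1mut replicate 2 or 3. Over all genes 1475 to 1764 passed there, beside 2363 with all arrays. The mean deviation of the G1/S members from their own gene means stayed between -0.08 and 0.07 on every array.

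As a set, the G2/M genes varied between arrays of the same group. On CTL replicate 2, 26 of 27 G2/M members had the lowest value of the CTL group, where 37.2% of all genes did, and the median G2/M member was lower by 0.28 (log2) than the mean of the other CTL arrays. Of the G1/S members 19 of 26 were lowest on this array too, with a median of -0.09 against the other CTL arrays. Of the other lists below, condensin and cohesin genes had a mean deviation of -0.21 there, and the fork polymerase list 0.00. On IDH1wt replicate 1, 21 of 27 had the lowest value of their group (32.3% of all genes), and on IDH1wt replicate 2, 22 of 27 had the highest (30.4%). The mean deviation of the G2/M members was 0.07, -0.18 and 0.08 on the CTL arrays, -0.18, 0.10 and -0.07 on the IDH1wt arrays and 0.02, 0.03 and 0.12 on the IDH1mut arrays. The 3 groups thus overlapped, and the IDH1mut arrays lay closer together than those of either other group. The median SD within groups was 0.16 for G2/M members, 0.12 for G1/S members and 0.15 for all genes.

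**Figure D3:**
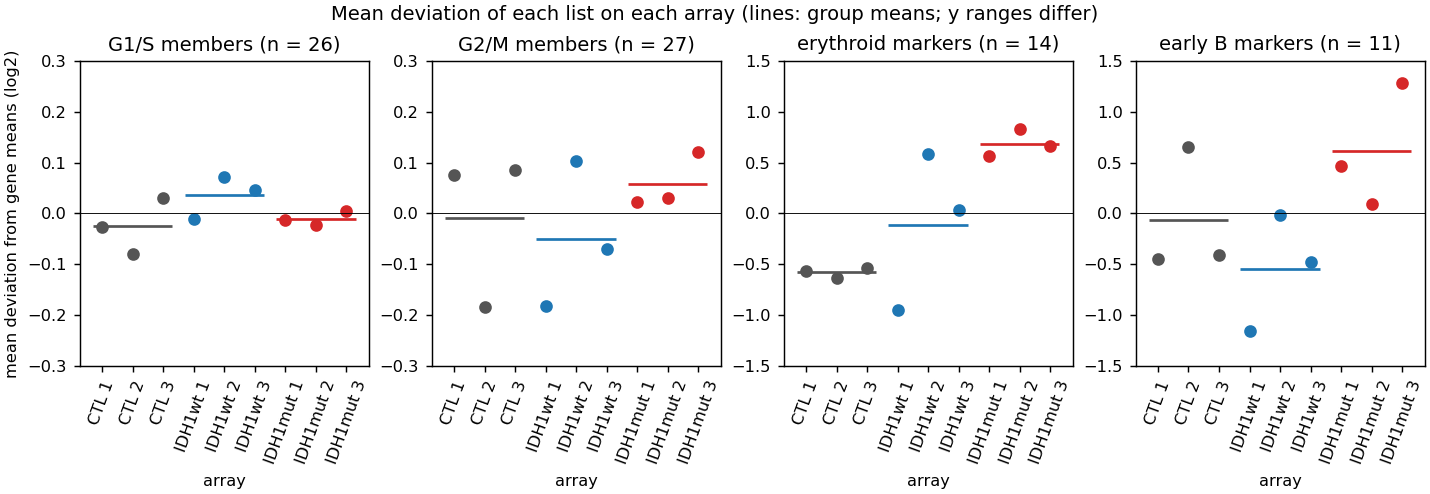
Mean deviation (log2) of the G1/S members, the G2/M members and the erythroid and early B markers from their own gene means, 1 point per array with a line at each group mean; the vertical ranges of the panels differ. CTL replicate 2 and IDH1wt replicate 1 lie lowest for G2/M at -0.18, and the erythroid genes are higher on all 3 IDH1mut arrays than on all 3 CTL arrays.

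Marker lists also differed between arrays of the same group. The erythroid genes had a mean deviation of -0.95 on IDH1wt replicate 1 and 0.59 on IDH1wt replicate 2, the arrays with the lowest and highest G2/M values of that group, but -0.57, -0.63 and -0.54 on the CTL arrays. The early B genes stood at -1.15, -0.01 and -0.47 on the 3 IDH1wt arrays, in the same order as the G2/M genes. On CTL replicate 2, where the G2/M genes were lowest, the early B genes were highest, at 0.65 against -0.45 and -0.41 on the other CTL arrays. On IDH1mut replicate 3 they stood at 1.28, against 0.47 and 0.09 on the other IDH1mut arrays. Their part in the G2/M values was not tested.

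Among the cyclins and their kinase, Ccna2, the cyclin A of S and G2 phase, rose. It read 9.08, 8.95 and 9.06 in CTL, 8.94, 9.15 and 9.01 in IDH1wt and 9.33, 9.38 and 9.41 in IDH1mut. All IDH1mut arrays were above the other 6, which overlapped. The rise was 0.34 ± 0.09 against CTL (1.27-fold; adjusted p = 0.0217) and 0.34 ± 0.09 against IDH1wt (adjusted p = 0.0321), and the difference between IDH1wt and CTL was 0.00 ± 0.09 (95% interval -0.20 to 0.20). The call against CTL held without IDH1mut replicate 1 and that against IDH1wt without IDH1wt replicate 2; leaving out any other array of the groups compared ended it (adjusted p up to 0.0741 and 0.0989).

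Cdk1, the kinase that starts mitosis, read 9.62, 9.50 and 9.74 in CTL, 9.47, 9.57 and 9.47 in IDH1wt and 9.59, 9.58 and 9.71 in IDH1mut. The IDH1mut arrays overlapped the CTL arrays and lay just above the IDH1wt arrays. IDH1mut differed from CTL by 0.01 ± 0.10 (adjusted p = 0.968; 95% interval -0.20 to 0.22) and from IDH1wt by 0.13 ± 0.10 (adjusted p = 0.443). Foxm1, a transcription factor of mitotic genes, read 6.34, 6.07 and 6.37 in CTL, 6.21, 6.43 and 6.39 in IDH1wt and 6.00, 6.01 and 6.00 in IDH1mut. The IDH1mut arrays were below all others. The difference was -0.26 ± 0.11 (adjusted p = 0.115) from CTL and -0.34 ± 0.11 (adjusted p = 0.0564) from IDH1wt. Without CTL replicate 2, on which Foxm1 was the lowest of its group, it passed against CTL (adjusted p = 0.0442), and without IDH1wt replicate 1 it passed against IDH1wt (0.0495).

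Ccnb2, a cyclin B, and Cdc25c, the phosphatase that activates CDK1, had differences from CTL in IDH1mut of 0.00 ± 0.10 and -0.04 ± 0.13. Of the mitotic kinases and the passenger complex (Plk1, Aurka, Aurkb, Birc5 and Nek2), 0 of 5 passed in any comparison, none with an unadjusted p under 0.05 by limma, and differences from CTL ran from -0.21 to 0.12 in IDH1mut and from -0.17 to -0.06 in IDH1wt. The spindle checkpoint and anaphase genes (Bub1, Bub1b, Mad2l1, Ttk, Cdc20 and Ube2c) likewise had 0 of 6 past the threshold or with an unadjusted p under 0.05, with differences of -0.18 to 0.12 in IDH1mut against CTL. Cdc20, an activator of the anaphase-promoting complex, read 10.72, 10.72 and 10.73 in IDH1mut, below the CTL range of 10.76 to 10.99.

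At the centromere, Cenpa, the histone H3 variant that marks it, read 6.42, 6.12 and 6.42 in CTL, 6.50, 6.69 and 6.45 in IDH1wt and 6.73, 6.69 and 7.28 in IDH1mut. The IDH1mut arrays were above the CTL arrays, with replicate 3 well above the other two. The rise was 0.57 ± 0.16 (1.49-fold; adjusted p = 0.0231). It was lost without IDH1mut replicate 3 or CTL replicate 2 (adjusted p up to 0.0865). Cenpe and Cenpf, large kinetochore proteins, differed by 0.05 ± 0.26 and -0.05 ± 0.12.

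Of the 6 spindle and cytokinesis genes, Prc1 and Hmmr rose against CTL. Prc1, which bundles microtubules of the central spindle, read 7.74, 7.60 and 7.91 in CTL, 7.58, 7.995 and 7.90 in IDH1wt and 8.18, 8.20 and 8.32 in IDH1mut. Its IDH1mut arrays were above all others, by 0.49 ± 0.12 over CTL (1.40-fold; adjusted p = 0.0167) and 0.41 ± 0.12 over IDH1wt (adjusted p = 0.0511). The call against CTL was lost without CTL replicate 1 or 2 or IDH1mut replicate 3 (adjusted p up to 0.065).

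Hmmr, a spindle assembly factor, read 6.46, 6.11 and 6.47 in CTL, 6.37, 6.79 and 6.60 in IDH1wt and 6.88, 6.71 and 6.87 in IDH1mut. The IDH1mut arrays were above the CTL arrays and overlapped IDH1wt. The rise was 0.47 ± 0.13 (1.39-fold; adjusted p = 0.027), and it was lost without CTL replicate 2 or IDH1mut replicate 1 or 3 (adjusted p up to 0.0994). The motor genes Kif11, Kif20a and Kif23 and the spindle factor Tpx2 did not pass. Kif23 came nearest, at 5.18 to 5.70 in CTL and 5.72 to 5.87 in IDH1mut (0.35 ± 0.13; adjusted p = 0.078).

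Top2a, which untangles chromosomes, read 6.53, 5.96 and 6.49 in CTL, 6.36, 6.99 and 6.69 in IDH1wt and 6.50, 6.84 and 6.99 in IDH1mut, with overlap (0.45 ± 0.19 in IDH1mut against CTL; adjusted p = 0.128). Mki67, the Ki-67 antigen used to count dividing cells, read 11.28, 11.03 and 11.25 in CTL, 10.80, 11.38 and 11.05 in IDH1wt and 10.89, 10.96 and 11.06 in IDH1mut. The ranges overlapped. Its difference was -0.22 ± 0.14 (adjusted p = 0.322; 95% interval -0.52 to 0.09) in IDH1mut and -0.11 ± 0.14 (adjusted p = 0.735) in IDH1wt.

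**Figure D4:**
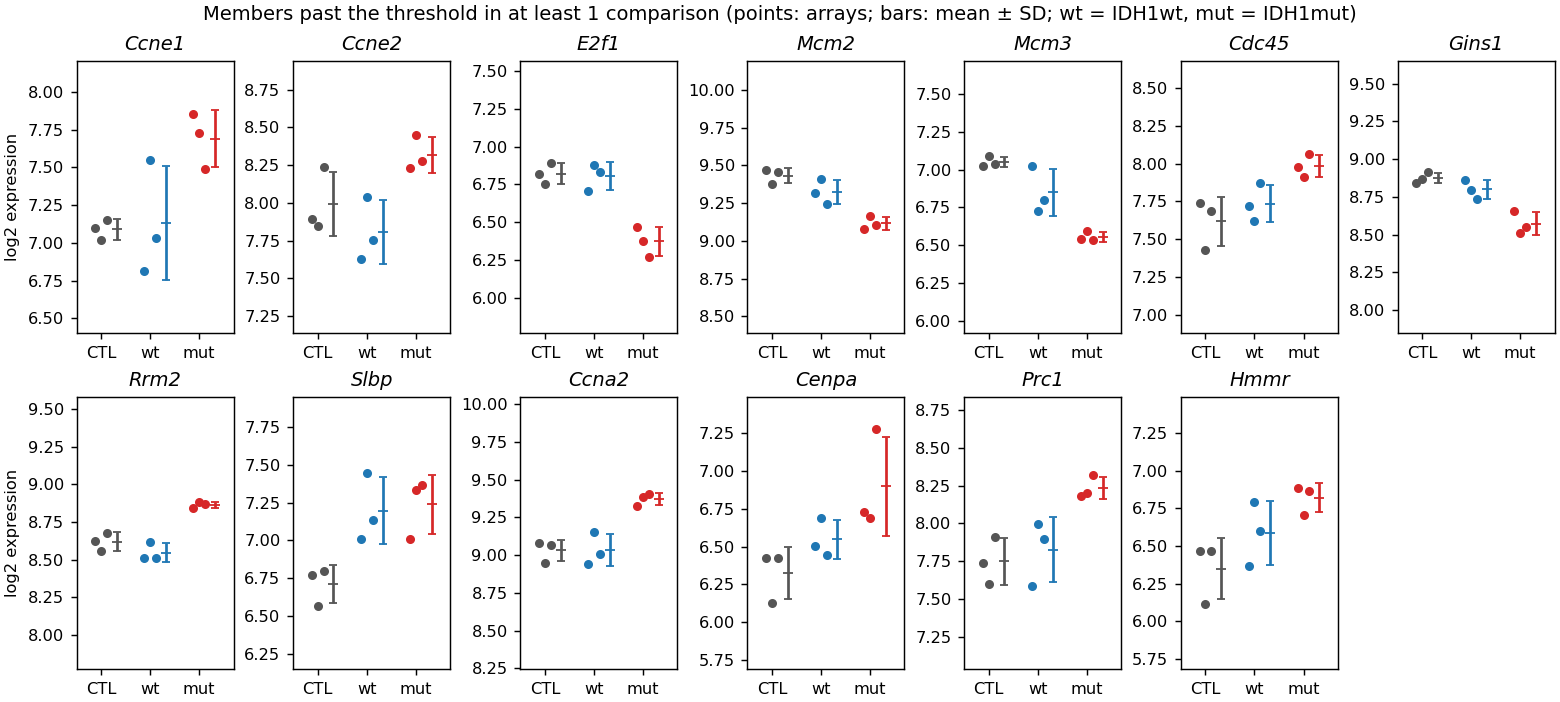
Log2 level on each of the 9 arrays for members past the threshold in at least 1 comparison, by group, with bars of mean ± SD. Each panel is centred on its gene mean and spans the same log2 range. The 3 IDH1mut arrays lie below the other 6 for E2f1, Mcm2, Mcm3 and Gins1 and above them for Cdc45, Rrm2, Ccna2 and Prc1.

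Over all 27 G2/M members, 4 rose and 0 fell in IDH1mut against CTL, with a median of 0.00. These calls are 14.8% of the members, beside 20.7% of all genes. By limma, 7 of 27 had an unadjusted p under 0.05, beside 5721 of 17731 genes. Without CTL replicate 2, the 4 calls were lost and Foxm1 alone passed, as lower, and the median was -0.09. Without IDH1mut replicate 3, 0 of 27 passed, and without CTL replicate 1, Cenpa and Hmmr passed. Over all genes, 2944, 2745 and 2370 passed without these arrays in turn, beside 3663 with all arrays. In the unmoderated test Ccna2 alone passed, beside 2955 of all genes, and the calls of Cenpa, Prc1 and Hmmr were lost. Against IDH1wt, Ccna2 rose and 0 fell, 3.70% of the members beside 13.3% of all genes. The median was 0.13 and 21 of 27 differences were above 0, beside an all-gene median of 0.00. Here 0 passed without IDH1wt replicate 3 or any 1 of the IDH1mut arrays, and Foxm1 alone, as lower, without IDH1wt replicate 1. Over all genes 1475 to 2022 passed in these settings, beside 2363 with all arrays. The median in IDH1wt against CTL was -0.09, and ran from -0.17 to 0.02 as single arrays were left out.

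Other genes of the same machinery, from lists of 190 measured genes that hold none of the members, gave 22 that rose and 17 that fell in IDH1mut against CTL, 20.5% of the genes beside the 20.7% of all genes. Among licensing and initiation genes 4 of 16 rose and 0 fell, led by Cdc7, the kinase that fires origins (7.50 in CTL, 7.76 in IDH1wt, 8.23 in IDH1mut; 0.74 ± 0.11, adjusted p = 0.000854), Orc5 (0.44 ± 0.10) and Mcmbp (0.39 ± 0.11). Among the fork polymerases, clamp loaders and replication protein A genes 4 of 19 fell and 1 rose, with a median of -0.19, and 11 of 19 had all IDH1mut arrays below all CTL arrays, beside 21.5% of all genes. Pold1, the catalytic subunit of polymerase delta, fell by 0.67 ± 0.08 (adjusted p = 0.000331) and Pold2, its partner, by 0.45 ± 0.09, while Dna2, a nuclease of the lagging strand, rose by 0.47 ± 0.12. The same 4 genes, Pold1, Pold2, Pole and Rnaseh2a, also fell against IDH1wt.

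In IDH1mut against CTL 20.7% of all genes were called, and the next lists are read beside that share. It was 34.6% for other S phase E2F targets, 16.1% for kinetochore and checkpoint genes and 6.90% for spindle genes. For condensin and cohesin genes it was 20%, and for other G2/M control genes 15.2%. Of 26 other S phase E2F targets, 4 rose and 5 fell against CTL. The replication fork protein gene Timeless stood at -0.64 ± 0.14 and the deoxycytidine kinase Dck at 0.59 ± 0.11. The histone chaperone Nasp stood at 0.58 ± 0.16. Nasp was also the 1 gene of all these lists that rose in IDH1wt against CTL (0.75 ± 0.16; adjusted p = 0.0327). Of 31 kinetochore and checkpoint genes 2 rose and 3 fell, with Knl1, a kinetochore scaffold, at -1.001 ± 0.281, Cenpk at 0.72 ± 0.16 and Incenp, of the passenger complex, at -0.53 ± 0.11. Incenp fell in IDH1wt too (-0.46 ± 0.11; adjusted p = 0.048). Of 29 spindle genes 1 rose (Ska3) and 1 fell (Kif2c). Of 20 condensin and cohesin genes 3 rose and 1 fell, led by Pttg1, which encodes securin (0.69 ± 0.09), the cohesin subunit Stag2 (0.65 ± 0.09) and Pds5a (0.57 ± 0.16). Of 33 other G2/M control genes 2 rose and 3 fell, with Lmnb1, lamin B1, at -0.57 ± 0.18, Anapc5 at -0.51 ± 0.10 and Lin54 of the DREAM complex at 0.34 ± 0.11.

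Of 16 genes of RB, G1 control and quiescence, 5 rose and 0 fell against CTL, where 10.1% of all genes rose. The list was chosen with earlier results of these data known, so its share beside all genes is only a description. Btg1, an antiproliferative gene, rose by 1.28 ± 0.17 (adjusted p = 0.000393), its relative Tob1 by 0.94 ± 0.11 (adjusted p = 0.000244) and Ccng2, a cyclin of resting cells, by 0.58 ± 0.12 (adjusted p = 0.0066). Against IDH1wt also 5 of 16 rose and 0 fell, beside 6.54% of all genes that rose, led by Tob1 (0.99 ± 0.11), Btg2 (0.77 ± 0.12) and Ccng2 (0.72 ± 0.12). Cdkn1b, the CDK inhibitor p27, averaged 4.25 in CTL, 3.68 in IDH1wt and 4.26 in IDH1mut. It fell in IDH1wt against CTL (-0.57 ± 0.12; adjusted p = 0.0358) and rose in IDH1mut against IDH1wt by 0.58 ± 0.12 (adjusted p = 0.01). Late neutrophil markers rose in the same comparisons (8 of 12 in each). Of the erythroid markers, 13 of 14 rose against CTL and 0 of 14 against IDH1wt. The part of either list in these values was not tested.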

How the data were processed

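The authors deposited log2 expression values per probe set. The submitters' processing notes name RMA, a method of background correction, quantile normalisation and summary over probes that makes no detection calls. Its version and any filter are not given in the sources used here. Of 20877 probe sets, 17815 had 1 gene symbol. The brightest probe set by mean stood for a gene, giving 17731 genes; each member had 1 probe set.

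A mean per group was fitted to the 9 arrays with limma 3.58.1 (R 4.3.3), with Benjamini-Hochberg adjustment over all genes, and the script was tested on simulated data. Full values were given for members past 0.05 in any comparison and for Pcna, Mki67, Cdk1, Top2a, Foxm1, E2f1, Ccne1, Ccne2 and Mcm2 to Mcm7; of other lists, up to 3 called genes by size. Members and lists were chosen with earlier results of these data known. Promoter letters came from RefSeq (GRCm38.p6), matched by symbol. With 3 arrays per group, the number of arrays limits the precision.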

Additional observations from a re-analysis of the deposited data

How the results depend on the processing

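Counts are given as G1/S members, G2/M members and all genes, which were 7, 4 and 3663 in IDH1mut against CTL, 4, 1 and 2363 in IDH1mut against IDH1wt, and 0, 0 and 414 in IDH1wt against CTL. Leaving out 1 array gave 3 to 5, 0 to 4 and 2370 to 3390 in the first, 1 to 4, 0 to 2 and 1475 to 2050 in the second, and 0 to 2, 0 to 0 and 132 to 570 in the third comparison, with the fewest genes without CTL replicate 1 in both comparisons with CTL and without IDH1wt replicate 3 in the other. A test against a difference of 0.2 (log2) left 0, 0 and 1484, then 0, 0 and 700, then 100 genes in the third. An unmoderated test gave 6 (1 rose, 5 fell), 1 and 2955 in the first comparison. It gave 5 (1 rose, 4 fell), 1 and 1719 in the second, and 0, 0 and 58 in the third. In IDH1mut against IDH1wt, genes above the median level gave 9 (3 rose, 6 fell) of 21, 4 of 24 and 2827 of 8865. An intensity trend with robust variances gave 7 (3 rose, 4 fell), 2 and 2821, and the 6 arrays compared 2, 0 and 1662. Repeated quantile normalisation gave 4, 2 and 2376, and array weights 4, 2 and 2557. In IDH1wt against CTL, the trend gave 1 G1/S member (Slbp) and 717 genes, and array weights 1 (Slbp) and 1226, of which 58.2% were higher, beside 69.6% without weights. With the replicate block in limma, IDH1mut against IDH1wt had 2, 0 and 2035, and Gins1 lost its call against CTL (adjusted p = 0.0523). Same-numbered arrays of different groups had residual correlations of -0.09 to 0.03, beside -0.08 to 0.08 for arrays of unlike number. These values show no large effect shared by number, but cannot tell whether the samples were handled in sets. No named member past the threshold changed sign under these alternatives. E2f1 and Mcm3 lost their calls against CTL only in the test against 0.2.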
